A study of Mus musculus with 11 samples.

Results

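The genes described here encode secreted proteins of the acute phase response, of airway defence and of the club cell: Saa3, Reg3g, Lcn2, Lyz1, Lyz2, Pigr, Scgb1a1, Scgb3a1, Scgb3a2 and Bpifa1. These 10 genes were chosen by role and by their measured levels over the 4 groups of lung arrays, with results of these arrays already known, so their levels and their counts of calls are a description and no independent evidence. Of the 10, 8 had a probe set that matched by RefSeq accession, and all 8 were bright enough to be tested, among 8085 genes tested and 14351 genes named on the array. Lyz1 and Scgb3a2 had no matched probe set and were not analysed here.

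Lung RNA came from wild-type Balb/c mice and from 4ebp1-/-/4ebp2-/- Balb/c mice, which lack Eif4ebp1 and Eif4ebp2, genes of repressors of cap-dependent translation, which act by occupying eIF4E. Total RNA was hybridised to 3 arrays from wild type and 3 from knockout, and polysomal RNA to 2 from wild type and 3 from knockout. Polysomal RNA was the pool of gradient fractions 7 to 10 of 10, whose transcripts carry 3 or more ribosomes. All mice were fed a purified AIN-93M diet from 5 weeks of age, and the labels give no age at sampling, no sex and no challenge. The knockout is present in every cell, and the knockouts came from another laboratory while the wild types were bought, so genotype and source of the mice cannot be told apart. Every array carried 100 ng of RNA labelled in a kit with a pair of amplification cycles. Whether arrays of a group come from separate mice is not stated, and p-values therefore reflect only how far these arrays scatter, some of which may be technical.

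All values are deposited log2 values, 1 per probe set and array. A difference is on the log2 scale and is followed by its standard error (SE), from a limma fit over the 11 arrays. A gene was said to rise or fall where its p-value, adjusted by the Benjamini-Hochberg method over all probe sets tested, was under 0.05. Eif4ebp2 was lower on every knockout array, at 2.61 to 3.26 against 4.50 to 5.49 in total RNA and 3.75 to 3.92 against 5.76 to 6.09 in polysomal RNA. Eif4ebp1 fell less, by 0.40 (SE 0.11, limma adjusted p = 0.033) and by 0.67 (SE 0.13, limma adjusted p = 0.0096), and where its probes lie relative to the deletion is not known here. The lung genes Sftpc, Ager, Hopx and Cldn5 were at 12.19 or higher on all arrays, and Pecam1 ranged from 3.97 to 9.40. None of the liver markers with a probe set was bright enough to test, the highest value of any being 3.60 for Serpina1a, against a median of 2.30 to 2.49 over the arrays for all probe sets too dim to test.

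Wild-type total replicate 3 stood apart from the other arrays of its group. Its neutrophil genes S100a8, S100a9 and Cxcr2 were at 14.37, 12.40 and 10.04. On the other wild-type total arrays S100a8 was at 11.75 and 10.98, S100a9 at 10.35 and 9.68 and Cxcr2 at 6.86 and 6.97. The surfactant gene Sftpc and the immunoglobulin joining chain gene Jchain were lower there, at 13.89 and 9.31 against 15.59 and 15.82 and against 11.41 and 11.48. It also held the lowest wild-type total value of Reg3g, Lcn2, Lyz2, Pigr, Scgb1a1 and Bpifa1, so the genotype differences of the 8 genes in total RNA are given with and without it. Saa3 was not among them, and its highest wild-type total value was on that array.

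In the acute phase response, inflammatory cytokines such as interleukin-6 and interleukin-1 act through STAT3, NF-kappaB and C/EBP factors to raise the output of secreted defence proteins, mainly in the liver but also in epithelia and macrophages. Airway club cells and submucosal gland cells secrete secretoglobins, BPI-fold proteins, lysozyme and lectins into the lining fluid, and carry dimeric IgA across the epithelium with the polymeric immunoglobulin receptor. Such mRNAs are read on the endoplasmic reticulum, and a message held on many ribosomes sediments in the heavy fractions of a gradient. Because lung RNA was measured in bulk, fewer cells of a type and less RNA per cell cannot be told apart.

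Saa3, Reg3g and Lcn2 had the largest knockout differences of the 8 genes in total RNA, so the 250 bases before their transcription starts are shown, from the RefSeq promoter table of mouse build GRCm38.p6. Each is written 5′ to 3′ on the gene's strand, which is the minus strand for all 3, and capitals mark the matches to the motifs searched. The windows are chr7:46715677-46715926 for Saa3, chr6:78468875-78469124 for Reg3g and chr2:32387740-32387989 for Lcn2. The start used for Saa3 lies inside the annotated span of the gene, chr7:46711998-46719615.
Saa3: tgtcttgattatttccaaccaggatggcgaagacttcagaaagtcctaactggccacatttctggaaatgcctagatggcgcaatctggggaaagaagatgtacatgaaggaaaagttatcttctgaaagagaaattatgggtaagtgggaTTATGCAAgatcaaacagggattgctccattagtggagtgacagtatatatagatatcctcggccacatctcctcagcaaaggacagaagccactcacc
Reg3g: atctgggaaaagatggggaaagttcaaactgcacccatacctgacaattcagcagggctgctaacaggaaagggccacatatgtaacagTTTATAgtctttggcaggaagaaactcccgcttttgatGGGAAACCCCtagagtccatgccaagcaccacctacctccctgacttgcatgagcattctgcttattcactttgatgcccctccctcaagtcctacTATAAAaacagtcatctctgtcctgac
Lcn2: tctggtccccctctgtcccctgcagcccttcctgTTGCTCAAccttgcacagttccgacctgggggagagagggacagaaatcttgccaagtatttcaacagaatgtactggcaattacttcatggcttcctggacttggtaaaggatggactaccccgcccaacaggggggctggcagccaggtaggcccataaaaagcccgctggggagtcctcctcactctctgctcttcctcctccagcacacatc
Both strands were searched for a C/EBP core (TTNNGCAA), a STAT site (TTCNNNGAA), a TATA box (TATAAA) and the NF-kappaB consensus, and no matches of different motifs overlapped in these 3 windows. Saa3 held a C/EBP core at positions -99 to -92 from the start and Lcn2 held one at -216 to -209 on the other strand. Reg3g held the NF-kappaB consensus at -123 to -114 and a TATA box at -27 to -22, with another TATA match at -161 to -156 on the other strand. Of the 8 listed genes with a window in the table, 3 held the C/EBP core (Lyz1 was the third), 2 a TATA box, 1 the NF-kappaB consensus and 1, Scgb3a1, the STAT site. Over all 32851 promoters of the table these shares were 9.56% for the C/EBP core, 12.4% for the TATA box, 3.90% for the NF-kappaB consensus and 7.02% for the STAT site. A match describes the letters alone, and a window without one says nothing about the factor.

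Saa3 RNA was several-fold higher in knockout lung in both RNA kinds. Saa3 (on chromosome 7) encodes serum amyloid A3, the acute phase apolipoprotein made outside the liver in mice. It was at 8.85, 8.09 and 9.01 on the wild-type total arrays and at 10.79, 10.96 and 11.27 on the knockout total arrays. In polysomal RNA it was at 9.83 and 8.89 in wild type and at 11.56, 11.73 and 11.01 in knockout. Every knockout array lay above every wild-type array, whichever RNA was compared. Saa3 rose by 2.36 (SE 0.31, limma adjusted p = 0.0015, n = 3 and 3) in total RNA, a 5.13-fold difference and the 11th largest upward of the 8085 genes. In polysomal RNA it rose by 2.07 (SE 0.35, limma adjusted p = 0.0053, n = 2 and 3), 4.21-fold and the 9th largest upward. Without wild-type total replicate 3 the total RNA difference was 2.54 (limma adjusted p = 0.0020).

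Reg3g (chr6:78466269-78468874) encodes a secreted C-type lectin that binds the cell wall of Gram-positive bacteria. In total RNA it was at 8.02, 8.12 and 6.34 in wild type and at 9.88, 10.33 and 10.43 in knockout. In polysomal RNA it was at 11.38 and 11.28 in wild type and at 12.67, 13.18 and 12.65 in knockout. The genotypes did not overlap in either RNA kind, and the wild-type array at 6.34 was the replicate 3 that stood apart. Reg3g rose by 2.72 (SE 0.41, limma adjusted p = 0.0025) in total RNA, 6.58-fold and the 7th largest upward difference. Without that array the difference was 2.14 (limma adjusted p = 7.6e-04). In polysomal RNA the difference was 1.51 (SE 0.46) and did not pass (limma adjusted p = 0.053). Since all groups share 1 estimate of the spread, this p fell to 0.0021 without wild-type total replicate 3 and was 0.045 without wild-type total replicate 2, with the same difference of 1.51.

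Lcn2 (chr2:32384637-32387739) encodes lipocalin-2, which binds bacterial siderophores and so withholds iron. Its total RNA values were 10.78, 10.84 and 10.59 in wild type and 11.90, 12.23 and 12.29 in knockout. Its polysomal values were 13.17 and 13.03 in wild type and 13.78, 13.75 and 13.46 in knockout. The groups were tight and did not overlap, with a wider gap in total than in polysomal RNA. In total RNA Lcn2 rose 2.64-fold, a difference of 1.40 (SE 0.13, limma adjusted p = 3.7e-04), and by 1.33 without wild-type total replicate 3. In polysomal RNA it rose by 0.56 (SE 0.15, limma adjusted p = 0.034). The polysomal call was lost in 10 of 22 alternative settings, among them the removal of either wild-type polysomal array, with an adjusted p of up to 0.17.

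Lyz2 (chr10:117277541-117282272) encodes the lysozyme of macrophages and neutrophils, which is also made by alveolar type 2 cells. Lyz1 (chr10:117287795-117292868), the lysozyme of Paneth cells, is its near-identical neighbour, so the Lyz2 probe set may also read Lyz1 RNA, which was not tested. Lyz2 was at 15.11, 15.17 and 14.43 on the wild-type total arrays and at 15.61, 15.82 and 15.66 on the knockout total arrays. On polysomal arrays it was at 16.50 and 16.45 in wild type and at 16.23, 16.29 and 16.43 in knockout. Knockout arrays were all higher in total RNA and all slightly lower in polysomal RNA. In total RNA Lyz2 rose by 0.79 (SE 0.18, limma adjusted p = 0.0115), and by 0.56 (adjusted p = 0.0049) without wild-type total replicate 3. The call was lost without knockout total replicate 2 and when only the total arrays were fitted, both with an adjusted p of 0.051. The polysomal difference was -0.16 (SE 0.20, limma adjusted p = 0.65). On the polysomal arrays the Lyz2 probe set ranked between 1 and 3 from the brightest, at the end of the scale (the highest deposited value was 16.68), and whether it can still register a difference there was not tested.

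Pigr (chr1:130826684-130852249) encodes the polymeric immunoglobulin receptor, which carries dimeric IgA through the epithelium and is shed with it as secretory component. It was at 8.43, 8.25 and 7.07 in wild-type and at 8.44, 8.96 and 8.91 in knockout total RNA. It was at 10.15 and 10.37 in wild-type and at 10.57, 11.06 and 10.95 in knockout polysomal RNA. The genotypes did not overlap in either RNA kind, but in total RNA the lowest knockout array was only just above the highest wild-type array. Neither difference passed: 0.86 (SE 0.32, limma adjusted p = 0.082) in total RNA and 0.60 (SE 0.36, limma adjusted p = 0.30) in polysomal RNA. Without wild-type total replicate 3 the total RNA difference was 0.43 (limma adjusted p = 0.13). Jchain, which encodes the chain that joins the IgA dimers carried by this receptor, fell in both RNA kinds, with -1.65 (SE 0.49, limma adjusted p = 0.037) in total and -2.32 (SE 0.55, limma adjusted p = 0.022) in polysomal RNA, and the total RNA difference was -2.36 without wild-type total replicate 3.

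Scgb3a1 (chr11:49663595-49665118), a secretoglobin secreted by airway epithelial cells, was at 12.54, 12.87 and 12.61 in wild-type and at 13.43, 13.60 and 13.77 in knockout total RNA. In polysomal RNA it was at 14.41 and 14.03 in wild type and at 14.66, 14.70 and 14.60 in knockout. No wild-type array reached the lowest knockout array of its RNA kind. The total RNA level rose by 0.92 (SE 0.13, limma adjusted p = 0.0021), or 0.89 without wild-type total replicate 3, and the polysomal difference of 0.44 (SE 0.15, limma adjusted p = 0.077) did not pass. Its other probe set gave the same order of groups, with 12.29 to 12.70 in wild-type and 13.20 to 13.59 in knockout total RNA, and 13.91 to 14.36 in wild-type and 14.57 to 14.70 in knockout polysomal RNA.

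Scgb1a1 (chr19:9083642-9087956) encodes uteroglobin, the club cell secretory protein. It was at 16.49, 16.53 and 16.46 in wild-type and at 16.49, 16.40 and 16.51 in knockout total RNA. It was at 16.36 on both wild-type polysomal arrays and at 16.26, 16.28 and 16.39 on the knockout polysomal arrays. All 11 arrays lay within 0.27 of each other, and the probe set ranked between 1 and 3 from the brightest on each array, again at the end of the scale. Whether the probe set can still register a difference at this brightness was not tested. The knockout differences of -0.03 (SE 0.08, limma adjusted p = 0.83; -0.05 without wild-type total replicate 3) in total RNA and -0.05 (SE 0.08, limma adjusted p = 0.73) in polysomal RNA did not pass.

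Bpifa1 (chr2:154142880-154149217) encodes an airway surface protein of the BPI fold, also called SPLUNC1. Its wild-type total values were 13.12, 13.77 and 12.44, and its knockout total values were 13.69, 13.60 and 13.87. Its polysomal values were 15.56 and 15.73 in wild type and 15.40, 15.60 and 15.50 in knockout. The genotypes overlapped in both RNA kinds, and the wild-type total arrays spread over more than 1 log2 unit. Differences of 0.61 (SE 0.26, limma adjusted p = 0.12) in total RNA and -0.15 (SE 0.30, limma adjusted p = 0.79) in polysomal RNA did not pass. The total RNA difference was 0.28 (limma adjusted p = 0.29) without wild-type total replicate 3 and 0.94 (limma adjusted p = 0.011, a pass) without wild-type total replicate 2.

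**Figure D1:**
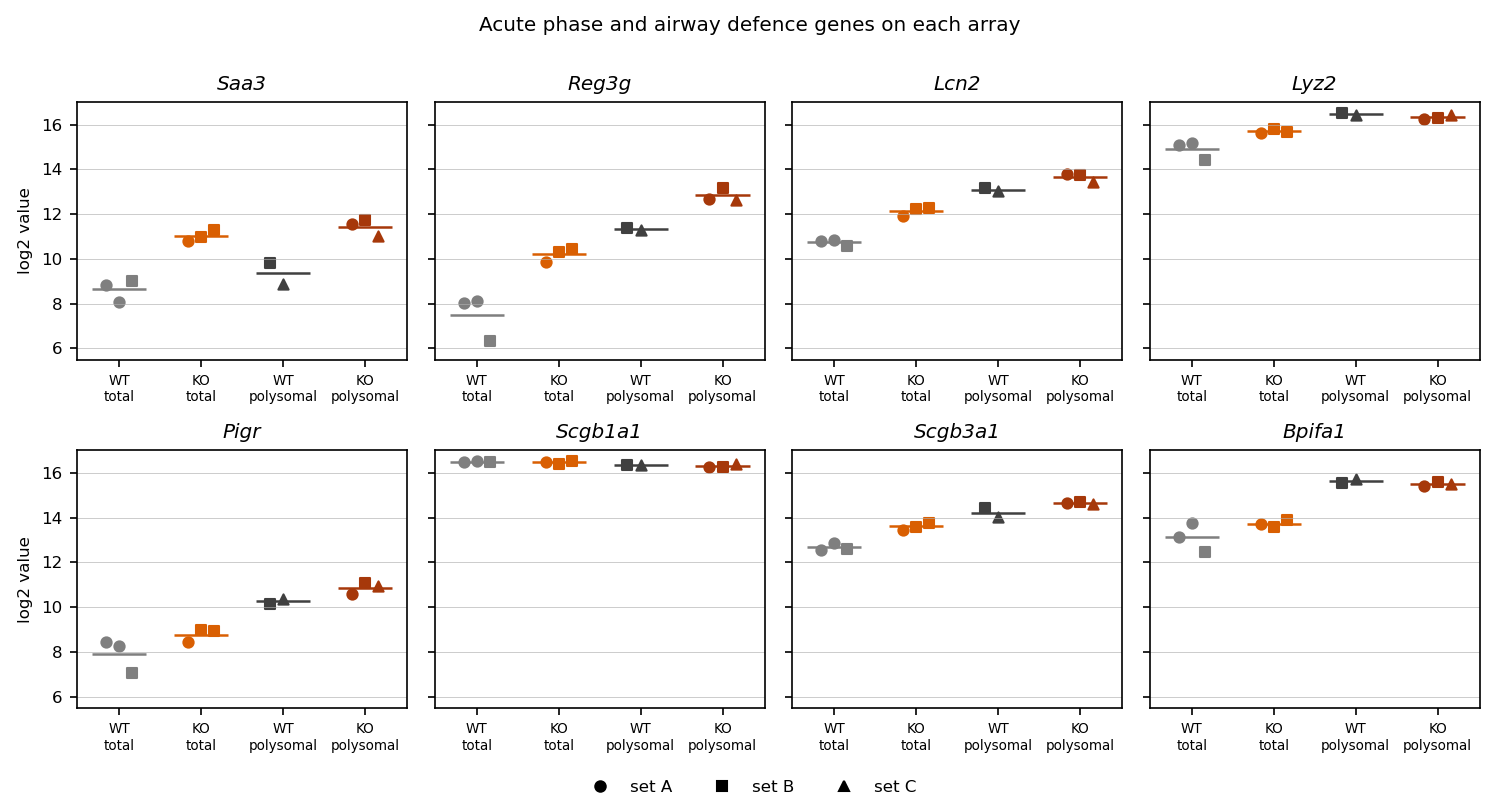
Log2 value of the 8 measured genes on each of the 11 arrays, 1 panel per gene on a shared vertical axis in log2 units, with WT for wild type and KO for knockout. Points are arrays, shaped by replicate set letter, and horizontal bars are group means. Saa3 sits above 10.7 on every knockout array and below 9.9 on every wild-type array, Reg3g is higher in polysomal than in total RNA within each genotype, and Scgb1a1 stays between 16.26 and 16.53.

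Of the 8 genes, 5 rose in knockout total RNA (Saa3, Reg3g, Lcn2, Lyz2 and Scgb3a1), none fell and 3 did not pass. In limma at an unadjusted p under 0.05, 7 were higher and 0 were lower. Over all genes tested 23.2% passed in that comparison, 17.2% upward and 5.97% downward. With array medians made equal over the tested probe sets, the genes that rose were 55.2% of all that passed. After quantile normalization they were 60.6%, against 74.3% as deposited, so the share of upward calls depends on the scaling. The 5 calls were made under both scalings and also without wild-type total replicate 3. The knockout arrays of 6 genes, Pigr included, lay wholly above the wild-type arrays, as they did for 28% of all genes. The median difference was 0.89 over the 8 genes and 0.09 over all genes tested.

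In polysomal RNA 2 of the 8 genes rose, Saa3 and Lcn2, none fell and 6 did not pass, where 15.1% of all genes passed, 8.36% upward and 6.77% downward. At an unadjusted p under 0.05 limma gave 4 higher and 0 lower. Without overlap 5 genes were higher and 1, Lyz2, was lower, and over all genes these shares were 23.8% and 25.2%. Only 2 wild-type arrays stand behind these counts. The median difference was 0.50 over the 8 genes and -0.01 over all genes tested.

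**Figure D2:**
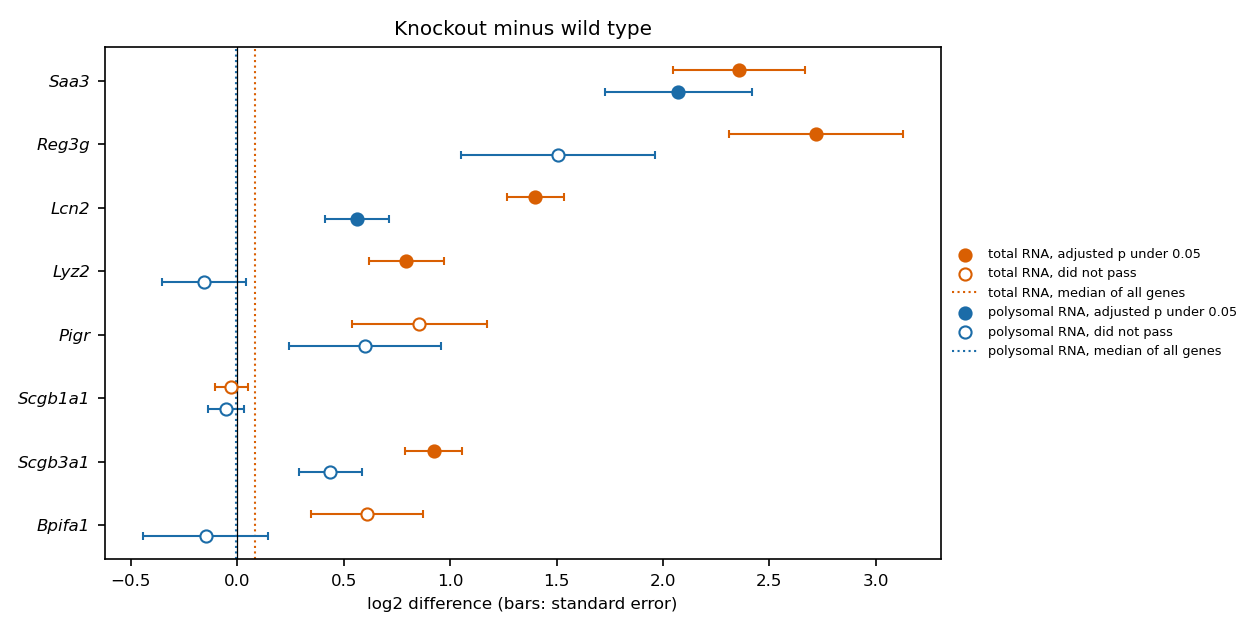
Knockout minus wild-type difference of the 8 measured genes in log2 units, in total and in polysomal RNA, with bars of the SE from the limma fit, filled points for a pass and dotted lines at the medians of all genes. Saa3 lies above 2 in both RNA kinds, while Lcn2 is at 1.40 in total and 0.56 in polysomal RNA and Lyz2 is at 0.79 and -0.16.

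The replicate set letters allow the genotypes to be compared within sets A and B in total RNA and within sets B and C in polysomal RNA, though only 1 or 2 arrays stand on each side and nothing was tested. Saa3 was the steadiest of the genes that rose in total RNA, with 2.32 in set A and 2.10 in set B, and 1.90 and 2.12 within the polysomal sets B and C. Reg3g differed by 1.81 in set A and by 4.04 in set B, where the wild-type array was replicate 3, and by 1.80 and 1.37 in polysomal RNA. For Lcn2 the total RNA differences were 1.09 and 1.67, for Lyz2 0.47 and 1.31 and for Scgb3a1 0.73 and 1.07. The larger value of these 4 genes was always that of set B. Pigr and Bpifa1, which did not pass, were at 0.10 and 0.25 in set A against 1.87 and 1.29 in set B.

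The change of the knockout difference from total to polysomal RNA was tested as the interaction of genotype and RNA kind. Lcn2 was lower by that measure (-0.84, SE 0.20, limma adjusted p = 0.019), as was Lyz2 (-0.95, SE 0.26, limma adjusted p = 0.031). Both had a smaller knockout difference in polysomal than in total RNA. Over all genes 22.3% passed, 8.06% with a higher and 14.2% with a lower interaction. The other 6 genes did not pass, with values of -1.21 (SE 0.61, limma adjusted p = 0.18) for Reg3g, -0.76 for Bpifa1, -0.49 for Scgb3a1, -0.29 (SE 0.47, limma adjusted p = 0.70) for Saa3, -0.26 for Pigr and -0.03 for Scgb1a1. All 8 values were below 0, with a median of -0.62 against -0.13 over all genes. When wild-type total replicate 3 was left out that was so for 7, since Pigr was at 0.17, and Reg3g was at -0.63, Bpifa1 at -0.42, Lyz2 at -0.71 and Lcn2 at -0.76. The value of Lyz2 uses the polysomal arrays on which it is at the end of the scale. Without wild-type polysomal replicate 1 the value of Saa3 was 0.19. The call for Lyz2 was lost in 11 of 21 alternative settings and that for Lcn2 in 2, one of them the removal of wild-type polysomal replicate 1 (adjusted p = 0.061).

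Within a genotype, 6 of the 8 genes rose from total to polysomal RNA. Over all genes 72.4% passed in wild type, 44.5% upward and 27.9% downward, and 65.2% passed in knockout, 39.5% upward and 25.7% downward. The genes that rose in both genotypes were Reg3g, Lcn2, Lyz2, Pigr, Scgb3a1 and Bpifa1, each without overlap between the RNA kinds, and 48% of all genes in wild type and 44% in knockout were higher without overlap. In wild type Reg3g was higher in polysomal RNA by 3.83 (SE 0.46, limma adjusted p = 3.5e-05), 14.2-fold. Bpifa1 followed with 2.53 (SE 0.30), Lcn2 with 2.36 (SE 0.15) and Pigr with 2.35 (SE 0.36). Lyz2 was at 1.57 (SE 0.20) and Scgb3a1 at 1.54 (SE 0.15), and all 5 had a limma adjusted p of 1.9e-04 or less. The wild-type median was 1.96 for the 8 genes and 0.22 for all genes tested, and quantile normalization and equal array medians moved the latter by -0.16 and -0.11. Leaving out wild-type total replicate 3 gave differences of 3.26 for Reg3g, 2.20 for Bpifa1, 1.92 for Pigr and 1.34 for Lyz2, and all 6 genes still passed. With the set letter as a replicate block within RNA kind, Pigr no longer passed in wild type (1.78, limma adjusted p = 0.054) or in knockout (1.54, limma adjusted p = 0.053), nor did Lyz2 in knockout (0.34, limma adjusted p = 0.37).

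In knockout lung the values of the same 6 genes were smaller, which passed the test of the interaction for Lcn2 and Lyz2 alone. Reg3g was higher in polysomal RNA by 2.62 (SE 0.41, limma adjusted p = 3.0e-04), Pigr by 2.09, Bpifa1 by 1.78, Lcn2 by 1.52, Scgb3a1 by 1.05 and Lyz2 by 0.62 (SE 0.18, limma adjusted p = 0.011). As a ratio of the knockout to the wild-type difference these were 0.684 for Reg3g, 0.891 for Pigr, 0.701 for Bpifa1, 0.645 for Lcn2, 0.685 for Scgb3a1 and 0.395 for Lyz2. The slope of the knockout on the wild-type difference over all 8085 genes was 0.684, and 4 of the 6 ratios lie between 0.645 and 0.701. Wild-type total replicate 3 enters these ratios and the slope. Without it the wild-type differences of all 6 genes were smaller, so all 6 ratios are higher. Reg3g was then at 3.26, Bpifa1 at 2.20, Lcn2 at 2.29 and Scgb3a1 at 1.51. The slope was not fitted again without that array, so whether the closeness holds without it was not tested. The ratio of Lyz2 is read with its polysomal values at the end of the scale. The wild-type value of Pigr without wild-type total replicate 3, 1.92, was below its knockout value of 2.09, which turns the direction for that gene. 

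Saa3 was the exception among the genes that rose with the knockout. From total to polysomal RNA it differed by 0.71 (SE 0.35, limma adjusted p = 0.090) in wild type and by 0.42 (SE 0.31, limma adjusted p = 0.26) in knockout, and its total and polysomal arrays overlapped in both genotypes. Neither difference passed, but wild type did without wild-type polysomal replicate 2 (1.18, limma adjusted p = 0.024). Scgb1a1 was slightly lower in polysomal RNA, by -0.13 (SE 0.08, limma adjusted p = 0.19) and -0.16 (SE 0.08, limma adjusted p = 0.098), with no overlap, at the end of the scale described above. Non-overlapping lower values were seen in 34.6% of all genes in wild type and 32.1% in knockout.

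**Figure D3:**
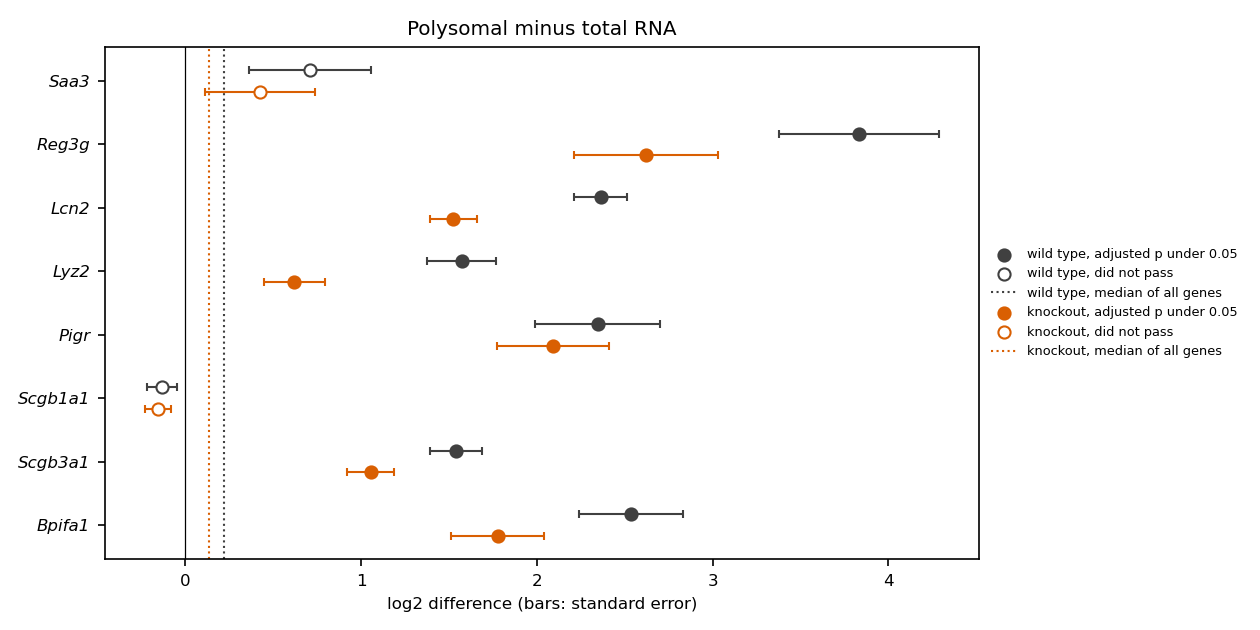
Polysomal minus total RNA difference of the 8 measured genes in log2 units (horizontal axis), for wild type and knockout, with bars of the SE from the limma fit, filled points for a pass and dotted lines at the medians of all genes. Reg3g lies furthest out at 3.83 and 2.62, Saa3 lies at 0.71 and 0.42, and the knockout point lies to the left of the wild-type point for each of the 8 genes, which for Pigr turns without wild-type total replicate 3.

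Across the 11 arrays the values of Reg3g, Lcn2, Lyz2, Pigr, Scgb3a1 and Bpifa1 moved closely together, with Pearson's r from 0.90 (Reg3g with Bpifa1) to 0.99 (Lcn2 with Scgb3a1). The arrays share the difference between RNA kinds, so these values are a description. Saa3 was less like them, with 0.72 for Reg3g, 0.70 for Lcn2 and Scgb3a1 and 0.37 for Bpifa1. Over the same 11 arrays the other tested genes most like Saa3 were Mcm2 and Cdt1, which license DNA replication (0.94 and 0.93), the secreted glycoprotein gene Fstl1 (0.93), Dnajc8 (0.93) and the cell cycle inhibitor gene Cdkn2c (0.92). Of these, Cdkn2c differed between genotypes by 0.94 in total and 1.12 in polysomal RNA and Mcm2 by 1.26 and 0.63. The latter did not pass (limma adjusted p = 0.058). Cdt1 differed by 0.84 and 0.55, Fstl1 by 0.32 and 0.26 and Dnajc8 by 0.28 and 0.32. Saa3 separates the genotypes, so a pick by likeness to it favours genes that differ between them, and these differences are a description.

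Regulators of acute phase genes were compared next, from a list of 20 of which 15 were tested. In knockout total RNA 2 rose, the transcription factor genes Stat3 (0.95, SE 0.12, limma adjusted p = 0.0012) and Rela (0.65, SE 0.12, limma adjusted p = 0.0051), and none fell. Both were also far higher in polysomal than in total RNA, with Stat3 at a mean of 7.81 and 8.75 in wild-type and knockout total RNA against 11.16 and 10.89 in polysomal RNA. No regulator rose in polysomal RNA (1 did without wild-type total replicate 3, the interleukin-1 receptor gene Il1r1 at 0.42), and 2 fell: Cebpb, a C/EBP factor (-0.68, SE 0.09, limma adjusted p = 0.0026), and Myd88, the adaptor of Toll-like and interleukin-1 receptors (-0.34, SE 0.09, limma adjusted p = 0.033). At an unadjusted p under 0.05, 1 more regulator was lower in total RNA. In polysomal RNA 1 was higher and 3 were lower by that measure, Cebpb, Myd88 and Cebpd (-0.86, SE 0.37, limma adjusted p = 0.15). Over all genes 17.2% rose and 5.97% fell in total RNA, and 8.36% rose and 6.77% fell in polysomal RNA. The list medians were -0.07 in total and -0.16 in polysomal RNA, against 0.09 and -0.01 over all genes, and the total RNA median was 0.07 without that array. The cytokine genes Il6 (1.98 to 2.12) and Tnf (1.80 to 3.01) and the receptor gene Il6ra (2.28 to 2.69) were too dim to test on all arrays.

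Of 22 other acute phase proteins listed, 9 were tested. In total RNA 6 of the 9 rose, none fell and 3 did not pass, where 17.2% of all genes rose. The median was 0.85. Those with the smallest p were the lipopolysaccharide-binding protein gene Lbp (0.90, SE 0.13, limma adjusted p = 0.0019), the haptoglobin gene Hp (0.85, SE 0.13, adjusted p = 0.0031) and Itih4 (0.97, SE 0.19, adjusted p = 0.0068). The remaining 3 were Lrg1 (1.21), ceruloplasmin, Cp (0.79) and Serpina3n (1.38). The count was also 6 without wild-type total replicate 3. In polysomal RNA none rose (1 was higher at an unadjusted p under 0.05), the median was -0.03, and 1 fell, the lipopolysaccharide co-receptor gene Cd14 (-0.82, SE 0.20, limma adjusted p = 0.027). In that comparison 8.36% of all genes rose and 6.77% fell. All 9 rose from total to polysomal RNA in wild type, by a median of 2.33 against 1.10 in knockout, and 5 of 9 had a lower interaction. Over all genes these shares were 44.5% and 14.2%. Saa1 and Saa2, the serum amyloid A genes of the liver, were at 2.12 to 3.94 and 3.70 to 5.52 and were too dim to test.

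Of 24 other airway and mucosal defence genes, 13 were tested. In total RNA 7 rose and none fell, where 17.2% of all genes rose, with a median of 0.44, and 5 rose when wild-type total replicate 3 was left out. Ltf, whose product lactoferrin binds iron, rose by 1.59 (SE 0.19, limma adjusted p = 0.0010), the mucin gene Muc1 by 0.92 (SE 0.12, limma adjusted p = 0.0014) and the antiprotease-like Wfdc2 by 0.96 (SE 0.14, limma adjusted p = 0.0020). The trefoil gene Tff2, the surfactant collectin gene Sftpd, the mucin gene Muc5b and Retnla also rose, and Muc5b and Retnla were the 2 lost without that array. In polysomal RNA 1 rose, Tff2 (0.85, SE 0.13, limma adjusted p = 0.0038), where 8.36% of all genes rose, and the median was -0.15. Tff2 was dim, at 3.57 to 3.66 in wild-type and 4.35 to 4.37 in knockout total RNA. It reached 5 only on knockout polysomal replicates 2 and 3 (5.19 and 5.27). Since it was tested only through the group where it is high, its calls are a description and no independent evidence. Without wild-type total replicate 3 the chemokine gene Cxcl17 also fell in polysomal RNA (-0.61). From total to polysomal RNA 10 of 13 rose in wild type, as did 44.5% of all genes. Reg3a and Reg3b, relatives of Reg3g, reached at most 2.74 and 2.27 on any array and were not tested.

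Markers of club cells, leaving out the secretoglobins above, were 17 genes, 13 of them tested. In total RNA 2 rose, the carbonyl reductase gene Cbr2 (1.68, SE 0.19, limma adjusted p = 7.1e-04) and Muc5b (0.89, SE 0.24, adjusted p = 0.025), and the median was -0.06. Over all genes 17.2% rose in total RNA, and the median was 0.09. The club cell cytochrome gene Cyp2f2 differed by 0.05 in total and -0.17 in polysomal RNA and did not pass in either. Without wild-type total replicate 3 Cbr2 and the surfactant gene Sftpb (0.39) rose, Muc5b no longer passed (limma adjusted p = 0.055), and 5 markers fell, among them Gsta3, Aox3 and Cyp2b10. In polysomal RNA 2 fell, among them the aldehyde dehydrogenase gene Aldh1a7 (-0.46, SE 0.13, limma adjusted p = 0.038), and all 13 differences were below 0, with a median of -0.28. Over all genes 6.77% fell in polysomal RNA, and the median was -0.01. Without wild-type total replicate 3, 5 markers fell in polysomal RNA.

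Neutrophils and macrophages also make Lcn2 and Lyz2. Of 12 neutrophil markers 6 were tested, and only Ltf rose in total RNA, where 17.2% of all genes rose, with a median of -0.07. None passed in polysomal RNA, where 15.1% of all genes passed. The smallest limma adjusted p there was 0.16, for Ltf at 0.48. The polysomal median was 0.47, with 1 marker higher at an unadjusted p under 0.05. Without wild-type total replicate 3, Ltf and Csf3r (0.61) rose in total RNA, S100a8 (1.15) rose in polysomal RNA and the median in total RNA was 0.65. The log2 of the summed level of 11 markers was 12.1 to 14.8 in wild-type and 13.1 to 13.4 in knockout total RNA, and 13.2 to 13.4 and 13.6 to 14.0 in polysomal RNA. Mpo, Elane, Camp and Ngp, the granule genes of immature neutrophils, were at 1.80 to 2.19 on all arrays. Their part in the differences of Lcn2 and Lyz2 was not tested.

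Of 13 macrophage markers 11 were tested, and in total RNA 3 rose and 5 fell, with a median of -0.32, where 17.2% of all genes rose and 5.97% fell. Of these, 2 rose without wild-type total replicate 3, with C1qb no longer passing (limma adjusted p = 0.090), and 5 fell, with a median of -0.42. The complement gene C1qa went from a mean of 3.78 to 7.79, a rise of 4.01 (SE 0.22, limma adjusted p = 2.1e-05), against 11.58 and 11.19 in polysomal RNA. The alveolar macrophage genes Fabp1 (-0.99), Ear2 (-0.57) and Siglecf (-0.58) fell, as did Chil3 and Ear1. Itgax, of the same list, rose (0.54, SE 0.12, limma adjusted p = 0.011), and Mrc1 did not pass (-0.32, limma adjusted p = 0.19). In polysomal RNA 4 fell (Chil3, Ear1, Itgax and Csf1r) and none rose, where 6.77% of all genes fell. Fabp1, Ear2 and Siglecf did not pass there. The summed macrophage level was 14.8 to 15.0 in wild-type and 14.4 to 14.6 in knockout total RNA. In polysomal RNA it was 15.9 against 15.3 to 15.4, so it was lower in knockout in both. The sum is weighted to the brightest markers, such as Chil3 with a mean of 13.49 in wild-type total RNA. Lyz2 rose in total RNA and differed by -0.16 in polysomal RNA, which did not pass. The part of macrophages in these differences was not tested.

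**Figure D4:**
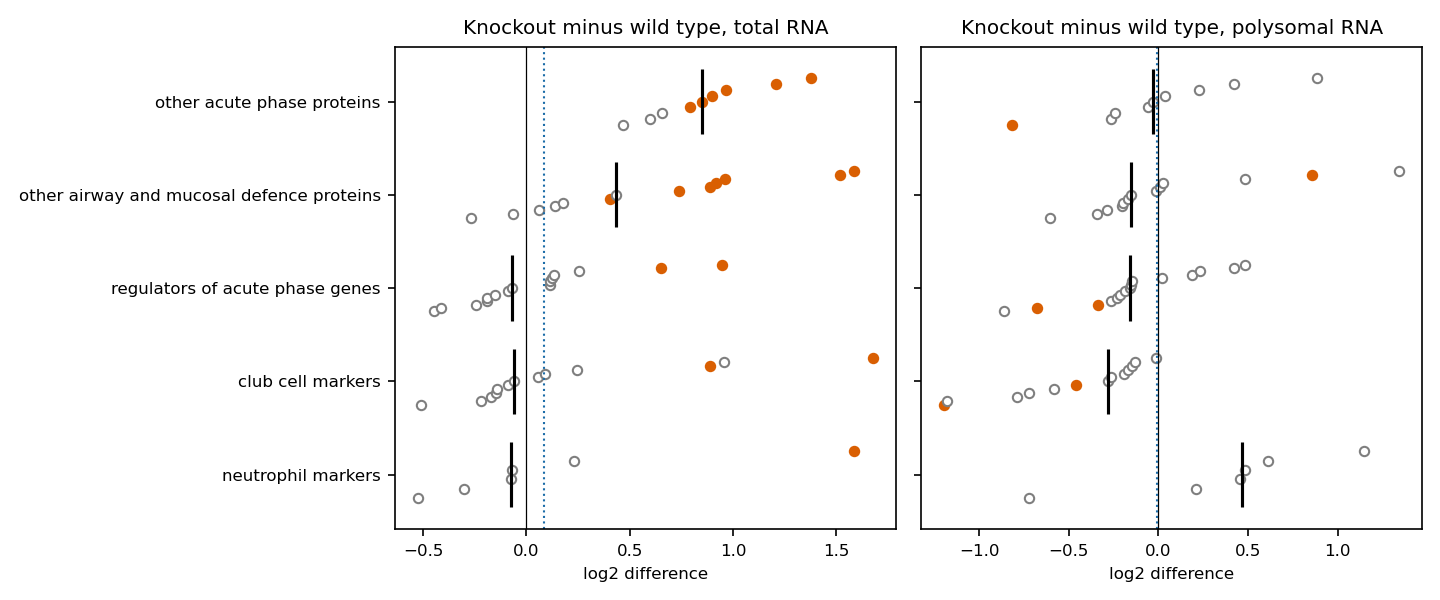
Knockout minus wild-type difference in log2 units of each tested gene of 5 related lists, in total and in polysomal RNA, with filled points for a pass, upright bars at the list medians and a dotted line at the median of all genes. The acute phase list has a median of 0.85 in total and -0.03 in polysomal RNA, and the neutrophil median is -0.07 in total and 0.47 in polysomal RNA.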

How the data were processed

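The authors deposited 1 table of log2 values per probe set and array. GCRMA, a background correction, normalization and probe summary, is named for this table per the submitters' processing notes, with no version. That the scale is log2 follows from the values, which span 0.73 to 16.68 with array medians of 4.96 to 5.04. Probe sets carry RefSeq accessions, and of 26180, the RefSeq table of GRCm38.p6 gave 15228 a single gene and 10952 no gene. Another row was repeated exactly by 7538 of them.

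Probe sets at 5 log2 or more on at least 2 of the 11 arrays were tested (13802), and where a gene had several, the one with the highest mean stood for it, which left 8085 genes. limma 3.58.1 in R 4.3.3 fitted 4 group means with lmFit and eBayes, two-sided, with Benjamini-Hochberg adjustment over all probe sets tested and a threshold of 0.05. This leaves 7 residual degrees of freedom. The number of arrays limits the precision. The fit was tested on simulated data.

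The genes described, the lists, the tests and the alternatives were chosen with earlier results of these data known. All 10 genes were to be named, with the targeted genes, up to 3 passing genes per list and comparison by smallest p (others of a list are named where their group is described) and the 5 genes most like Saa3. The values of 1 club cell marker are not reported here. Alternatives were other filters, scalings, thresholds, moderation with a trend, averaged probe sets, set letters as a block, only the arrays compared, and leaving out each array. Equal array medians were set over the tested probe sets only, while quantile normalization used all probe sets. Deviations of same-lettered arrays of an RNA kind correlated at -0.05 to 0.12 over 6 pairs, against -0.12 to 0.05 over 9 pairs of different letters. Across RNA kinds same-lettered arrays gave -0.17 to 0.32 over 9 pairs, against -0.21 to 0.30 over 21 pairs of different letters. With so few arrays per group, these values cannot decide whether the letters pair arrays. Plots were made in Python 3.11.15 with matplotlib 3.10.9.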

Additional observations from a re-analysis of the deposited data

Results flagged for a closer look

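The knockout difference of Lcn2, the siderophore-binding lipocalin, differed between RNA kinds: it was 1.40 log2 units in total and 0.56 in polysomal RNA, and the interaction was -0.84 (SE 0.20, limma adjusted p = 0.019). All knockout arrays were higher than all wild-type arrays in both RNA kinds.

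For Lyz2, the macrophage lysozyme, the difference was 0.79 in total and -0.16 in polysomal RNA, and the interaction was -0.95 (SE 0.26, limma adjusted p = 0.031). Its polysomal values rank between 1 and 3 from the brightest on each polysomal array, at the end of the scale, and whether a difference registers there was not tested. Over all genes tested 22.3% passed the same test, and 14.2% were lower.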

How the results depend on the processing

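Of 872 values of the 8 genes under alternative settings, 825 kept their side of the threshold, 30 no longer passed and 17 newly passed. The sign turned in 7, of 3 genes (Scgb1a1, Pigr and Saa3), none of which passed under either setting. The rises of Saa3, Reg3g, Lcn2 and Scgb3a1 in total RNA and of Saa3 in polysomal RNA were called in all 22 alternatives. With no filter on low values 4216 genes passed in total RNA and 10360 from total to polysomal RNA in wild type, and 1 of the 8 genes passed in polysomal RNA and 1 for the interaction. Quantile normalization left 1 for the interaction. With only the arrays compared, 684 genes passed in polysomal RNA. At a threshold of 0.01, 739 genes passed in total RNA, 370 in polysomal RNA and 473 for the interaction, with 1 of the 8 in polysomal RNA and 0 for the interaction. With a minimum of 1.5-fold, 1105 genes passed in total RNA and 803 in polysomal RNA, with 1 of the 8 there. As a replicate block, the set letter within RNA kind left 776 genes in polysomal RNA and 1178 for the interaction, and 1 of the 8 in each, and the block over all arrays left 1 of the 8 in polysomal RNA. Under the block over all arrays Saa3 passed from total to polysomal RNA in wild type (0.90, limma adjusted p = 0.017) and in knockout (0.72, adjusted p = 0.019), while the block within RNA kind left 5 of the 8 in wild type and 4 in knockout. Leaving out each array in turn gave 964 to 2162 genes and 4 to 6 of the 8 in total RNA, 619 to 1644 and 1 to 3 in polysomal RNA, and 1068 to 2087 and 0 to 3 for the interaction. From total to polysomal RNA it gave 5297 to 5865 genes and 6 to 7 of the 8 in wild type, and 4779 to 5492 and 6 in knockout. With equal array medians 45.1% of the genes that passed in polysomal RNA were higher, against 55.3% as deposited. The cause of these moves was not tested, and some of the settings use fewer arrays or a stricter threshold. Precision is limited by the number of arrays, 2 for wild-type polysomal RNA, and for Scgb1a1, and Lyz2 in polysomal RNA, by their place at the top of the scale.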

Other observations

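Ciliated cells are the other main cell of the airway lining. Of 13 markers listed, 8 were tested, and in polysomal RNA 4 fell, where 6.77% of all genes fell, and none rose (0 were higher at an unadjusted p under 0.05 in limma): the dynein gene Dnaic1 (-1.96, SE 0.25, limma adjusted p = 0.0019), the ciliogenesis factor gene Foxj1 (-1.27, SE 0.18, adjusted p = 0.0026), the tektin gene Tekt2 (-1.24, SE 0.22, adjusted p = 0.0068) and Tekt1 (-1.62, SE 0.33, adjusted p = 0.013). Dnaic1 reached 5 only on the wild-type polysomal arrays. Since it was tested only through the group where it is high, its place among the 4 is a description and no independent evidence. In total RNA 1 rose, Tppp3 (1.39, SE 0.23, adjusted p = 0.0037), and 1 fell, Ccdc39 (-0.55, SE 0.14, adjusted p = 0.023). Outside wild-type total RNA, Ccdc39 reached 5 only on knockout total replicate 3 (5.11), so its call has the same limit. Without wild-type total replicate 3 Ccdc39 no longer passed (adjusted p = 0.053), Tekt1 (-1.15), Tekt2 (-0.35) and Rsph1 (-0.53) fell in total RNA, and 4 fell in polysomal RNA.

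Of 9 plasma and B cell markers 7 were tested, and besides Jchain in total RNA the B cell receptor gene Cd79b rose by 1.55 (SE 0.38, limma adjusted p = 0.018), and the plasma cell gene Sdc1 fell in polysomal RNA (-0.60, SE 0.11, adjusted p = 0.0063). Of 9 alveolar type 2 markers 8 were tested, and in total RNA 3 rose, Napsa (1.01, SE 0.12, limma adjusted p = 0.0010), Sftpd (0.41) and Abca3 (0.39), or 5 without wild-type total replicate 3. None passed in polysomal RNA. Over all genes 17.2% rose in total RNA and 15.1% passed in polysomal RNA.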
